A study of Mus musculus with 9 samples.

Results

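Genes of antigen presentation by the major histocompatibility complex (MHC) were followed in liver RNA sequencing of 9 libraries. The members were the 10 rows of the deposited count table whose gene name is B2m, H2-K1, H2-D1, H2-Q10, Tap1 or Tapbp for class I, or H2-Aa, H2-Ab1, H2-Eb1 or Cd74 for class II, so 6 and 4 of the 56748 genes listed. The livers came from C57BL/6J mice (C57BL/6 in the sample labels), bought at 7 to 8 weeks of age per the study's methods, in 3 groups of 3 libraries. DSS mice went through 3 cycles of 1.8% dextran sulfate sodium in the drinking water, a colon irritant that brings on chronic colitis, with a week of recovery in each cycle, and took water by mouth. Indirubin mice had the same DSS cycles and took 1 g/kg of indirubin, a poorly soluble red plant pigment, by mouth each day. Control mice are labelled with water and no DSS, whereas the design text of the series opens with DSS colitis before it names any group, and the state of the Control colon therefore rests on the label. The labels do not say outright that each library is a separate animal, and the p-values measure the spread between these libraries.

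Class I molecules are carried by nearly every nucleated cell and show peptides from inside the cell to CD8 T cells. They are built from a heavy chain (H2-K1 and H2-D1 encode the classical ones) and beta-2 microglobulin (B2m), and they are loaded with peptides that the TAP transporter (Tap1 with Tap2) brings into the endoplasmic reticulum and that tapasin (Tapbp) helps to fit. H2-Q10 encodes a soluble class I heavy chain that hepatocytes secrete into the blood. Class II molecules show peptides from engulfed material to CD4 T cells and are made mainly by dendritic cells, B cells and macrophages, among them the Kupffer cells of the liver. H2-Aa and H2-Ab1 encode the alpha and beta chain of I-A, H2-Eb1 the beta chain of I-E, whose alpha chain C57BL/6 mice do not make, and Cd74 the invariant chain that guards the groove until peptides are loaded.

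Library totals lay between 6514863 and 7944684 counts, of which mitochondrial transcripts took 71.6% to 91.3%, so that 569044 to 2132208 counts were left for nuclear genes. Levels are given as normalized CPM, counts brought to a common library size with the TMM factors of all 9 libraries. Of the hepatocyte markers Alb, encoding albumin, was highest, at 4568 to 12827 normalized CPM. Libraries 2 and 3 of the Indirubin group stood apart. The 13 markers of pancreatic acinar cells summed to 913 and 1148 normalized CPM there, against at most 23.1 in the other 7 libraries, the 6 neutrophil markers to 242 and 88.6, against at most 24.6, and the 5 monocyte markers to 53.7 and 39.6, against at most 21.7. Their mitochondrial share was 71.6% and 77.2%, beside 72.4% in DSS-3 and 85.8% to 91.3% in the other 6. The 8 hepatocyte markers summed to 7979 and 9743 normalized CPM in these libraries and to between 9576 and 18698 in the others. The part that these differences have in the results below was not tested, and the members' fold changes with indirubin and the counts of the partner lists are also given without them, an alternative added after seeing the data.

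B2m (ENSMUSG00000060802, GRCm39 chromosome 2, 121978167 to 121983564) had the most counts of the members. Its normalized CPM were 283, 352 and 222 in Control, 151, 272 and 314 in DSS and 183, 134 and 140 in Indirubin. Each Indirubin library thus lay below each Control library, and 1 DSS library, DSS-1, lay within the Indirubin range. Lower RNA in a bulk sample cannot be told apart from fewer cells that make it. The group means were 286 ± 64.9, 246 ± 84.7 and 152 ± 27.1 normalized CPM (SD, n = 3).

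H2-K1 (ENSMUSG00000061232, chromosome 17, 34214991 to 34219321, minus strand) was read at 225, 346 and 175 normalized CPM in Control, 171, 189 and 329 in DSS and 199, 126 and 160 in Indirubin. H2-D1 (ENSMUSG00000073411, chromosome 17, 35481706 to 35486475) was read at 109, 140 and 84.8 in Control, 82.7, 121 and 203 in DSS and 97.1, 103 and 172 in Indirubin. For both classical heavy chains the groups overlapped. The means were 249 ± 87.5, 229 ± 86.6 and 162 ± 36.8 normalized CPM for H2-K1 and 111 ± 27.8, 136 ± 61.7 and 124 ± 41.8 for H2-D1 (SD, n = 3).

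H2-Q10 (ENSMUSG00000067235, chromosome 17, 35780986 to 35785460) was the member that varied most among the 9 libraries of those with counts in every library. Its normalized CPM were 230, 345 and 215 in Control, 156, 268 and 406 in DSS and 183, 43.3 and 80.01 in Indirubin, a 9.39-fold range, beside 2.46-fold for H2-D1, 2.63-fold for B2m and 2.75-fold for H2-K1. Indirubin-1 lay among the Control and DSS libraries, whereas Indirubin-2 and Indirubin-3 lay below all others. The counts behind the low values were 528 and 926, beside 881 to 4445 in the other libraries. The group means were 263 ± 71.5, 277 ± 125 and 102 ± 72.5 normalized CPM (SD, n = 3).

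**Figure D1:**
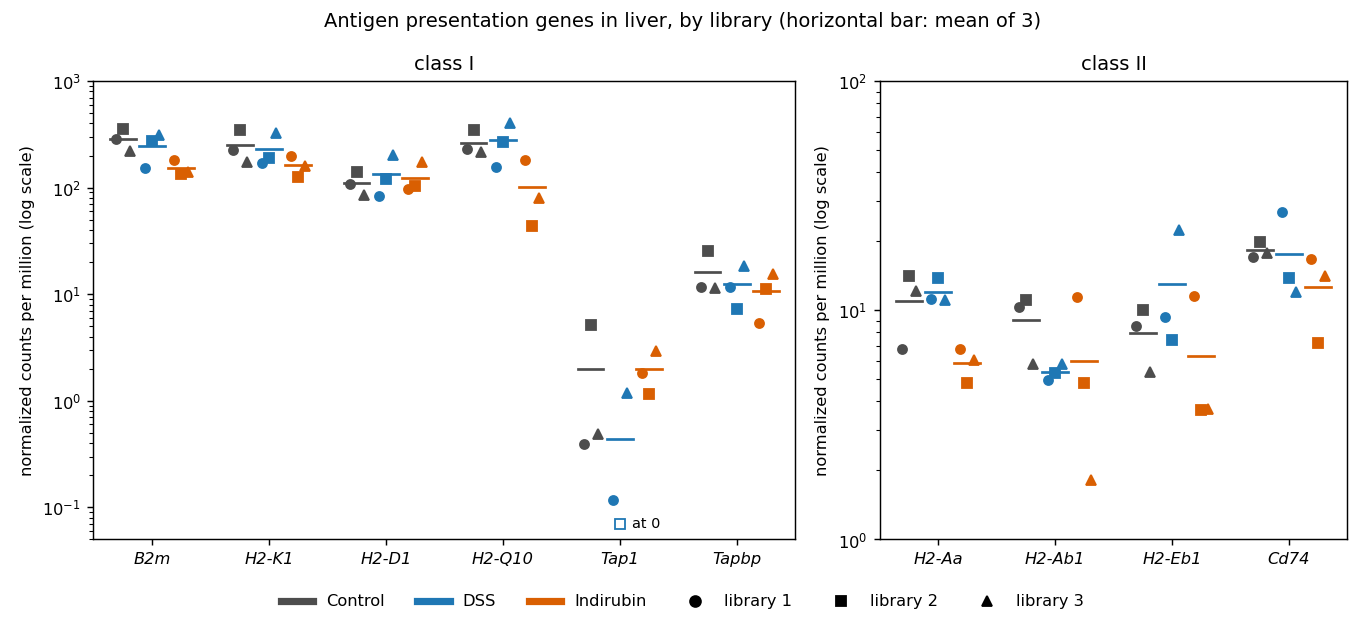
Normalized CPM (log axis) of the 10 antigen presentation genes in each library, class I on the left and class II on the right, with the group in colour, the library number by symbol and the mean of 3 libraries as a bar. H2-Q10 spans 43.3 to 406, with Indirubin-2 and Indirubin-3 lowest, and Tap1 has 0 counts in DSS-2.

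Set against one another within a library, the 3 heavy chains do not depend on how libraries are scaled. H2-Q10 made up 40.7%, 41.6% and 45.2% of the summed H2-K1, H2-D1 and H2-Q10 counts in Control and 38.1%, 46.4% and 43.3% in DSS. In Indirubin-1 its share was 38.2% (95% Wilson interval 36.3% to 40.05%), near the DSS and Control shares. In Indirubin-2 and Indirubin-3 it was 15.9% (14.7% to 17.2%) and 19.4% (18.3% to 20.6%), below every other library. These intervals cover counting error only, since reads without molecular identifiers are not independent molecules.

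H2-D1 filled most of the gap. Its share of heavy-chain counts was 16.9% to 21.7% in the 6 Control and DSS libraries, 20.3% in Indirubin-1 and 37.8% and 41.8% in Indirubin-2 and Indirubin-3, whereas the H2-K1 share, 32.7% to 46.3% over all 9, set no group apart. Accordingly, 1.88 to 2.53 H2-Q10 counts were read per H2-D1 count in 7 libraries and 0.420 and 0.464 in Indirubin-2 and Indirubin-3. Against the summed counts of 8 hepatocyte markers, H2-Q10 stood at 1.40% to 2.38% in the other 7 libraries and at 0.542% and 0.821% in these, while H2-D1 stood at 0.662% to 1.09% and at 1.29% and 1.77%. Alb held most of this marker sum, and ratios to single markers were not computed. The markers did not move together. Ttr was read at 164 and 199 normalized CPM in Indirubin-2 and Indirubin-3, beside 480 to 1110 in the other libraries. Tat was read at 276 and 266 there, beside 55.5 to 175 in the others. The mean H2-Q10 share of the group was 24.5% ± 12.0 (SD, n = 3), beside 42.6% ± 4.17 in DSS and 42.5% ± 2.38 in Control, and it was 28.8% without Indirubin-2, 27.0% without Indirubin-3 and 17.7% without Indirubin-1.

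**Figure D2:**
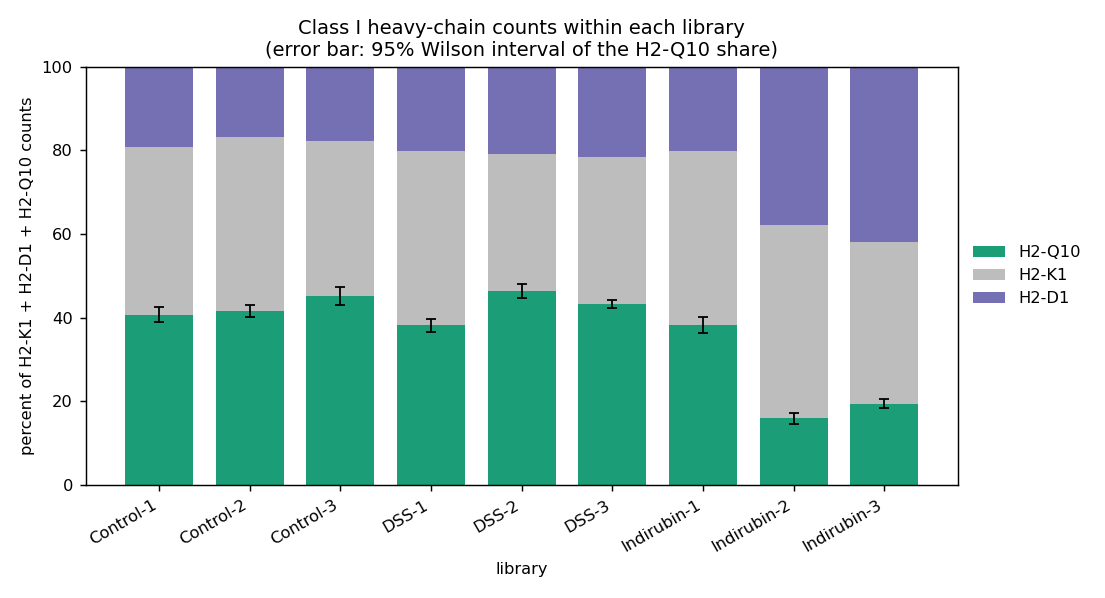
Percent of the summed H2-K1, H2-D1 and H2-Q10 counts that each gene took in each library, with the 95% Wilson interval of the H2-Q10 share. H2-Q10 took 38.1% to 46.4% in 7 libraries and 15.9% and 19.4% in Indirubin-2 and Indirubin-3, where H2-D1 took 37.8% and 41.8%.

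Since these heavy-chain genes differ in level and arise from copies of one gene, their promoters are shown, 250 bases before to 50 after the start given by RefSeq on GRCm38.p6. They are followed by that of H2-Aa to set a class II promoter beside them. The promoters of 8 members, matched by symbol, were searched for the motifs below, and those of H2-Ab1 and Cd74 were not. H2-K1 is at chr17:34000298-34000597 (minus strand, the first of 2 listed starts), H2-D1 at chr17:35262844-35263143, H2-Q10 at chr17:35469839-35470138 (plus strand for both) and H2-Aa at chr17:34287774-34288073 (minus strand). Capitals mark matches on either strand to GGGATTCCC (an enhancer A element bound by NF-kappaB), AAGTGAAAC (an interferon response element), CTGATTGG (the Y box of MHC promoters) and CCAAT, which overlaps the Y box.
H2-K1: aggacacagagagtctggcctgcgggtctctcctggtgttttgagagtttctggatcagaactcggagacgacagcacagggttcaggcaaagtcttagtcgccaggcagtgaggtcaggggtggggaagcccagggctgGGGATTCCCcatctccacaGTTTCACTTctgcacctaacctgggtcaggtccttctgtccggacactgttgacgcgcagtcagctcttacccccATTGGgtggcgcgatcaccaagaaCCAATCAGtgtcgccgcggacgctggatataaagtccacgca
H2-D1: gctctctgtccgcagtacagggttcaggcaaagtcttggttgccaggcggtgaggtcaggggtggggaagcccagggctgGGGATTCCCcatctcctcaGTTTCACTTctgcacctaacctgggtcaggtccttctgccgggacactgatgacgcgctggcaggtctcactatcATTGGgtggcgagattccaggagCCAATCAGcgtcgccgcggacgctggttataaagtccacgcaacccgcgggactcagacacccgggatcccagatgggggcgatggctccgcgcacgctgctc
H2-Q10: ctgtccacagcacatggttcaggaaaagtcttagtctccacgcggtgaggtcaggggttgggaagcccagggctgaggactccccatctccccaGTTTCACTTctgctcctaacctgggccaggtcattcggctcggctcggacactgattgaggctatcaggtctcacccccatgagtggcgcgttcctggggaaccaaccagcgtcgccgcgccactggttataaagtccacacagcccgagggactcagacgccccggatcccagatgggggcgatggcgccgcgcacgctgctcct
H2-Aa: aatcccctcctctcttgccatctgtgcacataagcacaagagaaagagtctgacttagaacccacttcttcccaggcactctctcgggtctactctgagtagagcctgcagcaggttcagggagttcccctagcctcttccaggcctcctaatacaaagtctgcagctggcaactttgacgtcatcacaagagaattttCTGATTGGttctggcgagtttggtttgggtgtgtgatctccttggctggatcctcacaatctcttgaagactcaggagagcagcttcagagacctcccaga

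The H2-D1 and H2-Q10 windows were 88.3% identical over their aligned bases, and those of H2-K1 and H2-D1 91.2%. H2-K1 and H2-D1 each held a match to all 4 motifs, whereas H2-Q10 held the interferon response element, 156 bases before its start, and none of the other 3. The enhancer A letters lay 110 bases before the start in H2-K1 and 170 in H2-D1. The Y box letters lay 8 bases after the start in H2-K1 and 53 before it in H2-D1. Distances in H2-K1 are counted from the first of its 2 listed starts, so this shift depends on that choice. Among 27025 promoters of the same length, 0.37% held GGGATTCCC, 0.403% AAGTGAAAC, 4.32% CTGATTGG and 37.9% CCAAT. The Y box letters were also found in the windows of Tap1, H2-Aa and H2-Eb1, 222, 51 and 62 bases before their starts, and CCAAT in those of B2m and Tapbp. These matches describe letters in a window, and binding was not measured.

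The heavy chains share sequence with other class I genes, which limits how surely reads can be placed. Of all 50-base windows of the longest coding transcript, 8.79% in H2-K1, 14.3% in H2-D1 and 8.03% in H2-Q10 occurred in another gene's transcript as well, and 0%, 4.64% and 2.06% of the 100-base windows. No window of B2m or the class II members was shared. How the authors' counting split such reads is not given in the sources used here, so the H2-D1 and H2-Q10 counts carry that uncertainty.

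Of the loading genes, Tapbp (ENSMUSG00000024308, chromosome 17, 34134873 to 34148266) was read at 11.7, 25.5 and 11.4 normalized CPM in Control, 11.7, 7.27 and 18.6 in DSS and 5.32, 11.2 and 15.5 in Indirubin. Tap1 (ENSMUSG00000037321, chromosome 17, 34406527 to 34416199) had few counts, with 2, 29 and 2 in Control, 1, 0 and 13 in DSS and 10, 14 and 34 in Indirubin. For both the groups overlapped, and no difference in Tap1 was detectable at this depth. In Control, 29 of the 33 Tap1 counts came from Control-2 and in DSS 13 of 14 from DSS-3.

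The class II genes were read from 21 to 244 counts per library. Cd74 (ENSMUSG00000024610, chromosome 18, 60936920 to 60945724) was the highest of them on average, at 17.1, 19.9 and 17.8 normalized CPM in Control, 26.9, 13.8 and 12.0 in DSS and 16.7, 7.21 and 14.1 in Indirubin. The 3 Indirubin libraries lay below the 3 Control libraries, while DSS held the highest value, in DSS-1, and 2 values below Indirubin-3. The group means were 18.3 ± 1.46, 17.6 ± 8.14 and 12.7 ± 4.90 normalized CPM (SD, n = 3).

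H2-Aa (ENSMUSG00000036594, chromosome 17, 34501718 to 34506797, minus strand) was read at 6.81, 14.1 and 12.2 normalized CPM in Control, 11.1, 13.8 and 11.1 in DSS and 6.79, 4.83 and 6.05 in Indirubin. It was the one member whose 3 Indirubin libraries lay below all 6 others, narrowly so for Control-1, which had 35 counts. H2-Ab1 (ENSMUSG00000073421, chromosome 17, 34476663 to 34488393) was read at 10.3, 11.1 and 5.85 in Control, 4.98, 5.32 and 5.85 in DSS and 11.4, 4.83 and 1.81 in Indirubin. Its beta chain partners the H2-Aa alpha chain, yet the Indirubin group held both its highest and its lowest values.

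H2-Eb1 (ENSMUSG00000060586, chromosome 17, 34524841 to 34535648) was read at 8.56, 10.04 and 5.36 normalized CPM in Control, 9.36, 7.44 and 22.3 in DSS and 11.6, 3.69 and 3.71 in Indirubin. DSS-3 lay above all other libraries, with 244 counts, and Indirubin-2 and Indirubin-3 below them, with 45 and 43. The 2 I-A chains therefore did not run in a fixed ratio with each other or with H2-Eb1. H2-Aa counts per H2-Ab1 count went from 0.597 in Indirubin-1 to 3.33 in Indirubin-3, and H2-Eb1 counts per H2-Ab1 count from 0.763 in Indirubin-2 to 3.81 in DSS-3.

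Levels were also set on a scale per kilobase of the listed gene length, which allows genes to be compared with each other. Averaged over 9 libraries, B2m stood at 265 ± 94.1 normalized CPM per kb (SD), H2-K1 at 72.6 ± 25.7, H2-Q10 at 49.2 ± 26.8 and H2-D1 at 48.0 ± 15.95. Cd74 followed at 9.63 ± 3.27, H2-Eb1 at 4.69 ± 2.91, Tapbp at 3.62 ± 1.67, H2-Ab1 at 2.66 ± 1.29, H2-Aa at 2.54 ± 0.932 and Tap1 at 0.268 ± 0.302. On this scale B2m lay above every other member in all libraries, since its lowest value was 155 and the highest of H2-K1 118. The 3 heavy chains overlapped, and so did each neighbouring pair from Cd74 down to H2-Aa. Tap1, at most 0.933, lay below H2-Aa in every library. The order depends on the length used, since the listed length exceeds that of the longest coding transcript in all members except B2m, most of all in H2-Aa (3798 against 1128 bases) and H2-Q10 (4348 against 1991). Per kb of that transcript, a scale added after seeing the data, H2-K1 stood at 132 ± 46.6, H2-Q10 at 108 ± 58.6, H2-D1 at 58.8 ± 19.6, Cd74 at 11.5 ± 3.89 and H2-Aa at 8.55 ± 3.14. H2-Ab1 then stood at 5.63 ± 2.73, H2-Eb1 at 5.46 ± 3.39 and Tapbp at 4.53 ± 2.09, so that H2-Aa moved from below H2-Eb1, Tapbp and H2-Ab1 to above them, and the range of H2-K1, up to 213, overlapped that of B2m.

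The comparison of DSS with Control asks what the colitis model did to these genes in the liver. No member passed the test. At an adjusted p under 0.05, 53 of 7482 tested genes were called (0.708%), and at an unadjusted p under 0.05, 563 (7.52%), by the quasi-likelihood test of edgeR, adjusted after Benjamini and Hochberg. None of the 9 tested members was among either, and Tap1 had too few counts to be tested. Fitted log2 fold changes of the members ran from -0.71 in H2-Ab1 (standard error 0.48, adjusted p = 0.896, edgeR quasi-likelihood and Benjamini-Hochberg) to 0.73 in H2-Eb1 (standard error 0.48, adjusted p = 0.893). The H2-Eb1 value was 0.15 without DSS-3, which held 244 of its counts, and at most 0.98 with one library left out.

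The intervals show what size of change these libraries could have missed. For H2-Q10 the log2 fold change was 0.10 (95% interval -0.59 to 0.80), for B2m -0.18 (-0.82 to 0.47), for H2-K1 -0.08 (-0.75 to 0.59) and for H2-D1 0.31 (-0.36 to 0.98). Cd74 stood at -0.00 (-0.77 to 0.77) and H2-Aa at 0.16 (-0.65 to 0.98). In H2-Ab1 alone the 2 groups did not overlap on the scale of this comparison, as was so for 16.1% of all tested genes. On the 9-library scale, Control-3 and DSS-3 came out at 5.85 each. Class I members had a median of -0.08 and class II members of 0.08, beside 0.01 over all tested genes. The median of all genes stood at 0.70 when libraries were scaled by their size alone, and B2m, H2-K1, Tapbp and Cd74 then took the other sign.

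The comparison of Indirubin with DSS asks what indirubin did in mice with colitis. H2-Q10 and H2-Aa had the lowest p-values of the members and both stood lower with indirubin, without passing the adjusted test. No gene of the 9117 tested passed an adjusted p under 0.05 (0%) by the edgeR test, the smallest being 0.223, while 700 (7.68%) had an unadjusted p under 0.05, 406 of them higher and 294 lower with indirubin. DESeq2's Wald test called 80 genes at an adjusted p under 0.05, none of them a member. Of the 10 members, 2 had an unadjusted p under 0.05.

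For H2-Q10 the log2 fold change was -1.44 (standard error 0.57, 95% interval -2.55 to -0.32, adjusted p = 0.575, edgeR quasi-likelihood and Benjamini-Hochberg). The groups overlapped, since Indirubin-1 lay above DSS-1. For H2-Aa it was -1.03 (standard error 0.43, 95% interval -1.88 to -0.18, adjusted p = 0.609 from the same test), and here the groups did not overlap, as in 16.4% of all tested genes. The H2-Q10 value was -0.60 without Indirubin-2 and Indirubin-3, -1.08 without Indirubin-2, -1.29 without Indirubin-3, -1.06 without DSS-3 and -2.27 without Indirubin-1. With Indirubin-2 and Indirubin-3 left out together, H2-Aa stood at -0.81 and no member had an unadjusted p under 0.05. No member did so without Indirubin-2 alone or Indirubin-3 alone, beside 5.28% and 4.89% of all tested genes, and 4 of 10 did so without Indirubin-1, beside 10.4%. With both libraries left out the share over all genes was 3.75%.

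The other class I members ran from -0.69 in B2m (95% interval -1.53 to 0.15) through H2-K1 at -0.50 (-1.35 to 0.34) and Tapbp at -0.23 (-1.22 to 0.76) to H2-D1 at -0.13 (-1.01 to 0.76), with Tap1 at 2.08 (-0.92 to 5.08). Of the other class II members, H2-Eb1 stood at -1.07 (-2.25 to 0.10), Cd74 at -0.48 (-1.40 to 0.45) and H2-Ab1 at 0.14 (-1.14 to 1.42). The Tap1 interval spans nearly all that its few counts allow, and the sign of H2-Ab1 turned without Indirubin-1 (-0.80) or DSS-1 (-0.02). H2-Eb1 stood at -0.44 without DSS-3, which held its highest value, at -1.92 without Indirubin-1 and at -0.18 without Indirubin-2 and Indirubin-3 together. Cd74 stood at -0.07 without both, at -0.14 without DSS-1, at -0.19 without Indirubin-2 and at -0.82 without Indirubin-1. With Indirubin-2 and Indirubin-3 both left out, Tapbp stood at -1.24, H2-Ab1 at 1.08, B2m at -0.42, H2-K1 at -0.20, H2-D1 at -0.48 and Tap1 at 1.99. The median was -0.37 over the class I members and -0.75 over the class II members, beside 0.15 over all tested genes. With library size as the scale, the median of all genes was 0.43, and H2-D1 and Tapbp took the other sign, at 0.13 and 0.09.

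**Figure D3:**
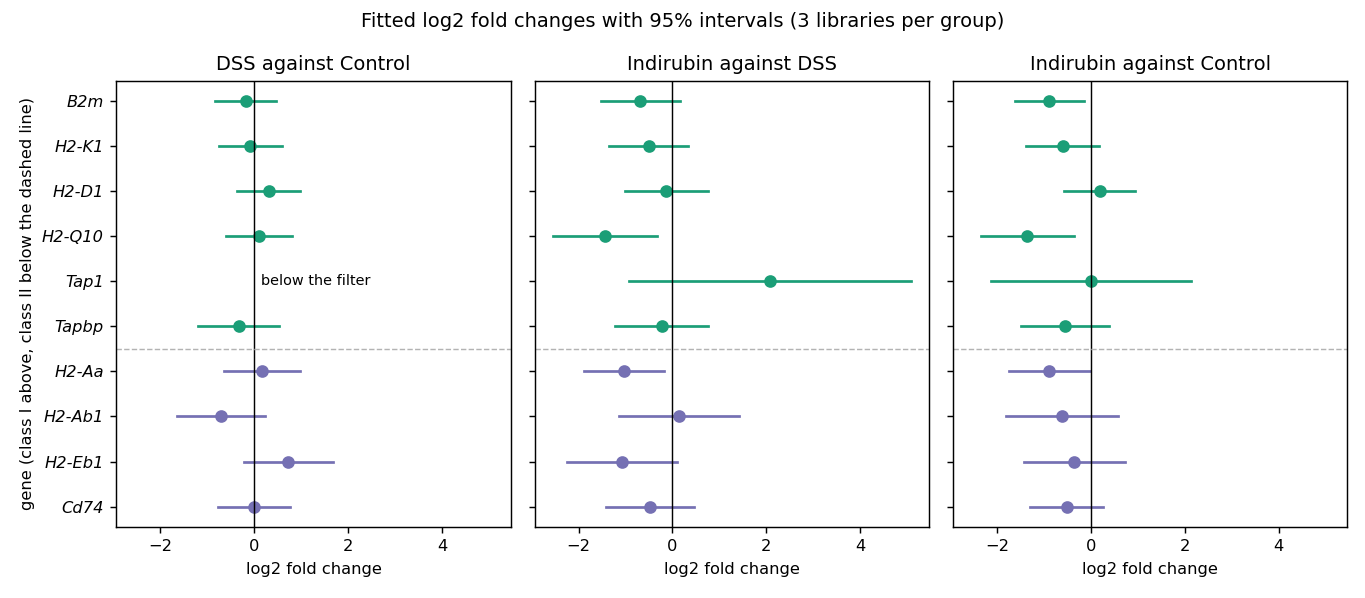
Fitted log2 fold changes of the members (points) with 95% intervals (lines) in the 3 comparisons, from edgeR on 3 libraries per group. H2-Q10 lies at -1.44 against DSS and -1.35 against Control, and intervals of most other members span 0.

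The comparison of Indirubin with Control joins both treatments and shares its libraries with the comparisons above, so their values are not independent. Here 19 of 8059 tested genes passed an adjusted p under 0.05 (0.236%) and 1114 an unadjusted p under 0.05 (13.8%). None of the 10 members passed the adjusted test and 2 had an unadjusted p under 0.05. H2-Q10 stood at -1.35 (standard error 0.51, 95% interval -2.34 to -0.36, adjusted p = 0.255, edgeR quasi-likelihood and Benjamini-Hochberg) and B2m at -0.88 (standard error 0.37, 95% interval -1.61 to -0.15, adjusted p = 0.314 from the same test). H2-Q10, B2m, H2-Aa and Cd74 were lower in every Indirubin library than in every Control library, so 4 of 10 members did not overlap, beside 21.7% of all tested genes.

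This outcome turned on Indirubin-1, the library of its group without acinar transcripts in quantity. Without Indirubin-1, H2-Q10 stood at -2.20 (adjusted p = 0.00482 edgeR quasi-likelihood) and B2m at -1.17 (adjusted p = 0.0473), both past the threshold, as were 465 of 9721 tested genes. Then 7 of 10 members had an unadjusted p under 0.05, beside 17.5% of all genes. Without Indirubin-2 or without Indirubin-3, and likewise without Control-2, no member did so, beside 9.78%, 9.58% and 12.9% of all genes. Without Indirubin-2 and Indirubin-3 together, H2-Q10 stood at -0.53 and B2m at -0.65, and Tapbp, at -1.61, was the member with an unadjusted p under 0.05. H2-K1 then stood at -0.33, H2-D1 at -0.21, Tap1 at -0.12, H2-Aa at -0.71, H2-Ab1 at 0.31, H2-Eb1 at 0.52 and Cd74 at -0.14. With all libraries, the class I median was -0.58 and the class II median -0.56, beside 0.13 over all tested genes. Scaled by library size alone, the median of all genes moved to 1.10, H2-Q10 stood at -0.65 and B2m at 0.03, and no member had an unadjusted p under 0.05.

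Class II was set beside class I within each library as the sum of 4 class II genes over the sum of 6 class I genes. This ratio was 4.98%, 4.54% and 5.81% in Control, 9.14%, 4.72% and 4.02% in DSS and 6.93%, 4.92% and 4.50% in Indirubin. The groups overlapped, and DSS held both the highest and the lowest ratio. Means were 5.11% ± 0.642, 5.96% ± 2.78 and 5.45% ± 1.30 (SD, n = 3). Cd74 as a percentage of B2m gave 5.66% to 8.004% in Control, 3.81% to 17.8% in DSS and 5.40% to 10.1% in Indirubin, again with DSS-1 highest. Without DSS-1 the DSS means were 4.37% for class II to class I and 4.44% for Cd74 to B2m.

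Markers of cells that make class II were read beside it. The 10 B cell markers summed to 52.9 normalized CPM in DSS-1, the library with the most Cd74, and to between 3.11 and 26.1 in the other 8, where Indirubin-2, lowest in Cd74, was also lowest. The libraries between did not keep this order. DSS-2 had the next highest sum, 26.1, with Cd74 at 13.8, and Control-3 a sum of 5.60 with Cd74 at 17.8. The 11 Kupffer cell markers, all detected in each library, summed to 114 to 195 normalized CPM in Control, 155 to 176 in DSS and 175 to 276 in Indirubin. Dendritic cell markers were near 0, with sums of 1.24 to 4.59 normalized CPM over 9 markers, and Xcr1, Cd209a and Ccr7 had no count in any library. The part of these cells in the class II levels was not tested.

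The summed Kupffer cell markers and the class II genes went apart in the libraries that stood out. Single markers differed in this. C1qa was read at 28.7 and 27.6 normalized CPM in Indirubin-2 and Indirubin-3, beside 9.55 to 16.3 in the other libraries. Csf1r was read at 9.51 and 10.02 there, within the 4.87 to 14.1 of the others. Per Kupffer marker count, 0.243 to 0.374 class II counts were read in the other 7 libraries and 0.0744 and 0.102 in Indirubin-2 and Indirubin-3. Of the 11 markers, 6 were higher and 5 lower in DSS against Control (median 0.03, beside 0.01 over all tested genes), and 8 were higher and 3 lower in Indirubin against Control (median 0.65, beside 0.13). In Indirubin against DSS 7 were higher and 4 lower (median 0.79, beside 0.15). There 4 had an unadjusted p under 0.05, all higher, beside 7.68% of all genes, and 0 passed the adjusted test. Without Indirubin-2 and Indirubin-3, 5 were higher and 6 lower against Control (median -0.14, beside 0.01). Against DSS, 3 were then higher and 8 lower (median -0.29, beside -0.01). In each comparison with Control 1 passed the adjusted test, and this was Marco, a scavenger receptor. Marco rose by 2.43 in DSS against Control (adjusted p = 0.0443, edgeR quasi-likelihood and Benjamini-Hochberg) and by 3.82 in Indirubin against Control (adjusted p = 0.0468), on the log2 scale. It stood at 1.66 against Control without Indirubin-2 and Indirubin-3 (adjusted p = 0.693, edgeR), and at 2.93 without Indirubin-3 alone (adjusted p = 0.166). The call in DSS against Control was lost on leaving out any single library other than DSS-1, and that in Indirubin against Control on leaving out any other than Indirubin-1, at adjusted p of 0.155 to 0.314 and 0.149 to 0.33. Clec4f, a lectin specific to Kupffer cells, stood at -0.33 in DSS against Control and at -0.64 in Indirubin against Control without passing.

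**Figure D4:**
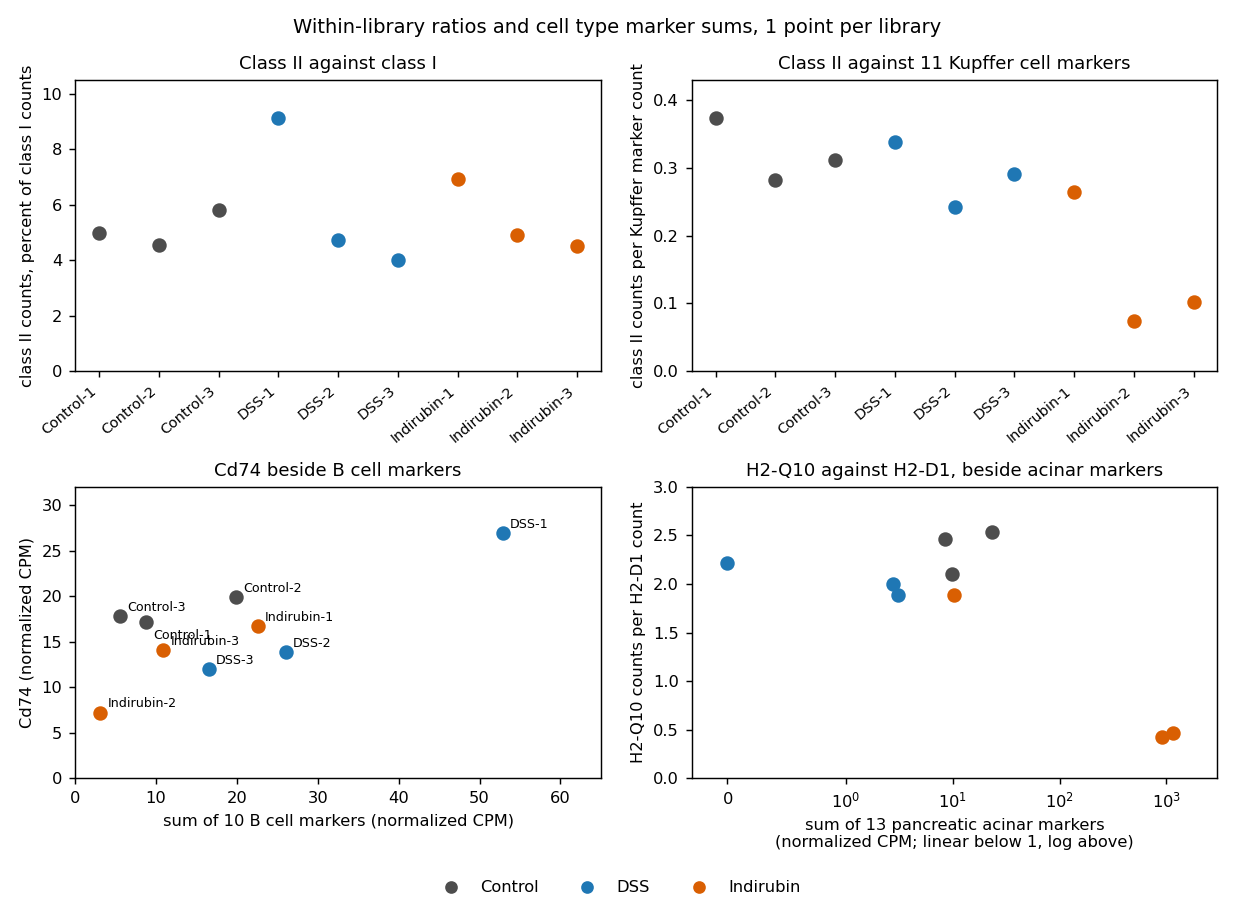
Within-library class II counts as percent of class I counts and per Kupffer marker count, Cd74 beside the summed B cell markers, and H2-Q10 counts per H2-D1 count beside the summed acinar markers, with 1 point per library coloured by group. DSS-1 stands at 9.14% class II to class I and at the highest B cell sum, 52.9 normalized CPM, and Indirubin-2 and Indirubin-3 stand apart in class II per Kupffer count and in H2-Q10 per H2-D1.

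Partner genes of the 2 pathways were counted from lists. Of 12 genes of class I peptide supply and loading, all were tested in Indirubin against DSS. None passed the adjusted test, and 2 of 12 had an unadjusted p under 0.05, both lower, beside 7.68% of all tested genes. These were Canx, encoding the chaperone calnexin, at -1.03, and Tapbpl, a tapasin relative, at -2.73, from few counts. In all, 10 of the 12 had a negative fold change, with a median of -0.63 beside 0.15 over all tested genes. Against Control, 10 of 11 tested were negative, with a median of -0.55, and Canx (-0.77) and Erap1 (-1.05), the aminopeptidase that trims class I peptides, had an unadjusted p under 0.05, beside 13.8% and a median of 0.13 over all tested genes. In DSS against Control, 7 of 12 were positive, with a median of 0.08 beside 0.01, and 0 had an unadjusted p under 0.05, beside 7.52%. Without Indirubin-2 and Indirubin-3, 10 of 12 were negative against DSS (median -0.54, 0 at an unadjusted p under 0.05) and 11 of 12 against Control (median -0.70, 1 each way). Over all genes tested at this setting, 3.75% and 7.83% had an unadjusted p under 0.05, with medians of -0.01 and 0.01.

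Of 17 further class I heavy chains and relatives with a row, 8 were tested in Indirubin against DSS, and 1 had an unadjusted p under 0.05 each way, beside 7.68% of all tested genes. The list's median was -0.06, beside 0.15 over all. Hfe, an iron regulator, stood at 1.31 and Cd1d1, which presents lipids to NKT cells, at -1.18, neither past the adjusted test. Cd1d1 was read at 22.4 to 29.6 normalized CPM in Control, 16.6 to 37.6 in DSS and 18.9, 7.62 and 9.504 in Indirubin, so that its low values lay in the same libraries as those of H2-Q10. H2-T23 and H2-T22, the H2 genes of this list with the most counts, stood at -0.46 and 0.30. In DSS against Control 6 of 8 tested genes were negative (median -0.63, beside 0.01 over all genes), with none at an unadjusted p under 0.05, beside 7.52%. In Indirubin against Control 6 of 7 were negative (median -0.38, beside 0.13), of which H2-T23 at -0.86 and Cd1d1 at -1.05 had an unadjusted p under 0.05, beside 13.8%. Without Indirubin-2 and Indirubin-3, 7 of 12 tested were positive against DSS (median 0.28, beside -0.01 over all genes) and 6 of 10 negative against Control (median -0.26, beside 0.01), and Cd1d1 stood at -0.51 and -0.42.

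Of 20 class II partners listed, 11 were tested in Indirubin against DSS and the other 9 were not. Of the 11 tested, 9 had a positive fold change (median 0.48, beside 0.15 over all tested genes), with none past the adjusted test and Marchf1, a ligase that removes class II from the surface, at 2.52 with an unadjusted p under 0.05, beside 7.68% of all genes. When Indirubin-2 and Indirubin-3 were left out, 9 of 16 tested were negative against DSS and 9 of 13 against Control, each with a median of -0.33, beside -0.01 and 0.01 over all genes, and with 0 at an unadjusted p under 0.05. Lgmn, the endosomal protease legumain, was read at 10.6 to 15.95 normalized CPM in Control, 10.1 to 19.0 in DSS and 20.01 to 32.04 in Indirubin. Its groups did not overlap in either comparison, at 0.81 against DSS and 1.04 against Control (adjusted p = 0.714 and 0.242, edgeR quasi-likelihood and Benjamini-Hochberg), and at 0.48 and 0.67 without Indirubin-2 and Indirubin-3. Ciita, the master activator of class II transcription, had 0 to 16 counts per library and was tested in none of the 3 comparisons with all libraries, and the peptide exchange factor H2-DMa had 0 to 29. In DSS against Control 6 of 9 tested were positive (median 0.24, beside 0.01), with 0 at an unadjusted p under 0.05, beside 7.52%. In Indirubin against Control 6 of 10 were positive (median 0.66, beside 0.13), with 1 at an unadjusted p under 0.05, beside 13.8%.

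Interferon gamma raises both classes in many cells, so its response genes were listed as well. In DSS against Control 14 of 18 tested genes were negative (median -1.29, beside 0.01 over all genes) and 6 had an unadjusted p under 0.05, beside 7.52% of all genes. All 6 were lower in DSS, among them the interferon-inducible GTPases Iigp1, Irgm1, Gbp3 and Gbp7 and the kinase Jak2. None passed the adjusted test. Iigp1 was read at 43.8, 121 and 64.1 normalized CPM in Control, 33.2, 22.5 and 15.4 in DSS and 26.1, 17.6 and 31.5 in Indirubin. All 6 treated libraries lay below the Control libraries, at -1.62 for DSS (adjusted p = 0.133) and -1.57 for Indirubin (adjusted p = 0.138), by edgeR quasi-likelihood and Benjamini-Hochberg. The median of the class I members in DSS against Control was -0.08, and the difference from this list was not tested. In Indirubin against DSS, 11 of 17 tested genes of the list were positive (median 0.41, beside 0.15), none at an unadjusted p under 0.05, beside 7.68%. In Indirubin against Control 14 of 17 were negative (median -0.70, beside 0.13), with 4 lower and 1 higher at an unadjusted p under 0.05, beside 13.8%. Without Indirubin-2 and Indirubin-3, 10 of 20 tested were negative against DSS (median -0.10, beside -0.01) and 16 of 20 against Control (median -0.74, beside 0.01), there with 5 at an unadjusted p under 0.05, all lower, beside 7.83% of all genes.

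Correlations between members were computed for 7 pairs on log2 normalized CPM over the 9 libraries, with exact two-sided permutation p-values. The permutations ran over all 9 libraries without regard to group, so these p-values also take in differences between groups. B2m ran with H2-Q10 (r = 0.895, p = 3.03e-05, adjusted over the 7 pairs 2.12e-04, rho = 0.967 with p = 1.65e-04 and adjusted 0.00116) and with H2-K1 (r = 0.874, p = 7.88e-04, adjusted 0.00276, rho = 0.95 with p = 3.53e-04 and adjusted 0.00123). With H2-D1 r was 0.355 (p = 0.342, adjusted 0.542, rho = 0.433 with p = 0.25 and adjusted 0.437). Without the libraries farthest from the B2m median, which were Indirubin-2 and Indirubin-3, the exact r over 7 libraries was 0.916 for H2-Q10 (adjusted p = 0.0292), 0.799 for H2-K1 (adjusted p = 0.0838) and 0.782 for H2-D1 (adjusted p = 0.0838). H2-D1 thus ran apart from B2m over 9 libraries through those 2. All values of a library share its scaling factor, and with library size alone as the scale r was 0.664 for H2-Q10 (adjusted exact p = 0.144), 0.897 for H2-K1 (adjusted exact p = 0.0179) and 0.763 for H2-D1 (adjusted exact p = 0.0378).

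Within class II, Cd74 gave r = 0.544 with H2-Aa (exact p = 0.128, adjusted 0.299, rho = 0.533 with p = 0.148 and adjusted 0.344), 0.269 with H2-Ab1 (exact p = 0.464, adjusted 0.542, rho = 0.3 with p = 0.437 and adjusted 0.552) and 0.316 with H2-Eb1 (exact p = 0.406, adjusted 0.542, rho = 0.25 with p = 0.521 and adjusted 0.552). Without DSS-1 and Indirubin-2, these were 0.0902, 0.561 and -0.253. B2m with Cd74 gave r = 0.213 (exact p = 0.602, adjusted 0.602, rho = 0.233 with p = 0.552 and adjusted 0.552), and -0.577 without Indirubin-2 and Indirubin-3. No other pair across the classes was computed.

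Genes whose pattern over the 9 libraries was most like that of the members were ranked among 9703 genes by Pearson's r on log2 normalized CPM, as a description. Nearest to the mean of the class II members were C8g (r = 0.978), Sc5d (0.976), Elovl5 (0.963), Decr1 (0.959) and Fads2 (0.957). These hepatocyte genes of complement, sterol and fatty acid metabolism had their lowest values in Indirubin-2 and Indirubin-3, such as 7.95 and 4.92 normalized CPM for C8g against 32.2 to 72.5 in the other libraries. Nearest to the mean of B2m, H2-K1 and H2-D1 were Cd81 (0.962), Hgfac (0.961), Spcs3 (0.940), Itm2b (0.936) and Gc (0.934). For H2-Q10, added after its values were seen, they included Cyp2d26 (0.980), Cyp2c67 (0.977), Lipc (0.976) and Mettl7b (0.970), of which the first 3 serve drug and lipid metabolism in hepatocytes. Lipc, the hepatic lipase, was read at 2.13 and 4.92 normalized CPM in Indirubin-2 and Indirubin-3 and at 22.2 to 75.2 elsewhere.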

How the data were processed

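Liver RNA of 9 libraries was sequenced on a DNBSEQ platform from 400 ng of RNA each. Gene counts were deposited by the authors as whole numbers with no normalization. The FPKM values in the same table, which the authors computed from counts and gene length, were not used for tests. The authors' fold changes, p-values and adjusted p-values of their own comparisons, and 3 lists of genes expressed in one group, were not used. Per the labels the genome build is GRCm39, and the aligner, counter and annotation are not given in the sources used here.

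The quasi-likelihood test of edgeR 4.0.16 (R 4.3.3) was run on TMM-scaled counts after filterByExpr, whose defaults ask for 10 counts and a total of 15, with Benjamini-Hochberg adjustment over the whole table tested. Each comparison used the 6 libraries of its 2 groups. A standard error is the fold change over the square root of F, and a 95% interval is the normal one from it. Members, gene lists, markers and tests were chosen with earlier results of these data known. Named are all members, the smallest p each way per list and comparison, and the 5 nearest genes, except that some are not reported here. Other list genes given with values (Irgm1, Gbp3, Gbp7, Jak2, H2-T23, H2-T22, Lgmn, Ciita, H2-DMa, Clec4f and second genes with an unadjusted p under 0.05) were chosen after their values were seen. Correlations between members used log2 normalized CPM with nothing added, and the ranking of nearest genes used log2(normalized CPM + 0.5). Same-numbered libraries did not deviate together across genes (r of -0.03 to 0.03), so the groups were taken as unpaired. Replicates differed by more than counting noise. The test was checked on simulated data. Alternatives were DESeq2 size factors, library size alone, DESeq2 1.42.0 with its Wald test, leaving out the filter, at least 10 counts in every library, all 9 libraries in one fit, a replicate block and each library left out. Fits without mitochondrial genes or without Indirubin-2 and Indirubin-3 were included as well, the latter added after the data were seen. Promoters are from RefSeq on GRCm38.p6, and shared windows from GENCODE M21 transcripts, by Biopython 1.88 in Python 3.11.15. With 3 libraries a group, an exact permutation test of a single value cannot go below 0.1, and none was run on one.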

Additional observations from a re-analysis of the deposited data

How the results depend on the processing

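The class II genes and Tap1 were read from few counts, and the main fits rest on 3 libraries a group. With library size alone as the scale, Indirubin against DSS called 2 genes at an adjusted p under 0.05. At an unadjusted p under 0.05 it called 510 of 9117 genes, 1 of them a member, and 2 members did not overlap. The share of all genes without overlap was not computed on this scale. The log2 fold change was 0.13 for H2-D1 and 0.086 for Tapbp. DSS against Control then called 19 and 916 genes by the adjusted and unadjusted rule and 1 member by the latter, with B2m at 0.51, H2-K1 at 0.65, Tapbp at 0.42 and Cd74 at 0.63. Indirubin against Control called 266 and 2222 genes and 0 members, with 0 members not overlapping, and B2m at 0.028, H2-K1 at 0.29, Tapbp at 0.51, H2-Aa at 0.058, H2-Ab1 at 0.13, H2-Eb1 at 0.38 and Cd74 at 0.35. The median of all genes moved up with them, from 0.15, 0.01 and 0.13 to 0.43, 0.70 and 1.10.

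In the order Indirubin against DSS, DSS against Control and Indirubin against Control, the adjusted rule called 80, 131 and 316 genes with DESeq2's Wald test, 156, 125 and 379 without a filter, 2, 84 and 72 where each library had to hold 10 counts, and 4, 11 and 56 with all 9 libraries in one fit, beside 0, 53 and 19. Without a filter, which tests more genes, the unadjusted rule called 1434 genes against DSS and 1966 against Control, there with 1 member and Tap1 at -0.026. With at least 10 counts, which tests fewer genes, the unadjusted rule called 689 genes against Control and 485 of 3988 against DSS, 1 of the latter a member. Against Control 2 members did not overlap, and the share of all genes without overlap was not computed at this setting. Cd74 stood at 0.0088 in DSS against Control. Tap1 against Control stood at -0.027 with 9 libraries in one fit and at -0.0076 without mitochondrial genes. With the replicate block, although the numbers pair nothing, 3, 30 and 49 genes passed the adjusted rule. In either comparison with Indirubin 1 member had an unadjusted p under 0.05, beside 682 of 9117 genes against DSS. The count of all genes against Control is not reported here. H2-Ab1 against DSS stood at -0.19. The cause of these moves was not tested where the number of genes does not give it.

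Without Indirubin-2 and Indirubin-3, where the lone Indirubin library is assumed to vary like the others, 417 of 11118 genes passed the unadjusted rule against DSS, with 0 members called and 4 not overlapping, beside 48.5% of all genes, and 741 of 9464 against Control, with 1 member called and 7 not overlapping, beside 55.5%. Against Control H2-D1 then stood at -0.21, Tap1 at -0.12, H2-Ab1 at 0.31 and H2-Eb1 at 0.52. With one library left out, Indirubin against DSS ranged from 0 to 134 genes by the adjusted and 482 to 1122 by the unadjusted rule, 0 to 4 members called and 1 to 6 not overlapping (23.7% to 30.9% of all genes), with H2-Ab1 from -0.80 to 0.58, H2-D1 from -0.49 to 0.28 and Tapbp from -0.59 to 0.16. DSS against Control ranged from 12 to 64 genes by the adjusted rule and 1 to 2 members not overlapping (22.9% to 27.1% of all genes), with B2m from -0.36 to 0.061, H2-K1 from -0.39 to 0.19, Cd74 from -0.48 to 0.23, H2-D1 from -0.055 to 0.56, H2-Q10 from -0.24 to 0.37, H2-Aa from -0.13 to 0.34 and Tapbp from -0.69 to 0.12. Indirubin against Control ranged from 1 to 465 genes by the adjusted and 845 to 1700 by the unadjusted rule, 0 to 7 members called and 4 to 7 not overlapping (29% to 37.9% of all genes), with Tap1 from -0.52 to 2.13 and H2-D1 from -0.13 to 0.35. The highest gene counts with Indirubin came without Indirubin-1.

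The correlation of Cd74 with H2-Ab1 was -0.215 by library size alone and with H2-Eb1 -0.253 without its farthest libraries. That of B2m with H2-K1 was 0.799 and with Cd74 -0.577 without Indirubin-2 and Indirubin-3, and by library size alone 0.763 with H2-D1 and 0.664 with H2-Q10. Of the member fold changes, 142, 108 and 127 alternatives kept their sign and side of the threshold in the 3 comparisons, 7, 18 and 20 turned sign, and 2, B2m and H2-Q10 against Control without Indirubin-1, passed the adjusted test.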
